A study of Rattus norvegicus with 33 samples.

Results

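Choline, glycine betaine, carnitine and trimethylamine N-oxide (TMAO) are small molecules that carry a trimethylated nitrogen, and gut bacteria take them up, build them and break them down. The genes that do so are grouped in the deposited data into functional subsystems, each a set of genes with a shared task. All subsystems with choline, betaine, carnitine or trimethylamine in their name were taken, in any case of letters, which gave 6 of 1057. They are named Choline and Betaine Uptake and Betaine Biosynthesis; Choline Transport; Glycine reductase, sarcosine reductase and betaine reductase; Carnitine Metabolism in Microorganisms; trimethylamine N-oxide (TMAO) reductase; and Phosphorylcholine incorporation in LPS. The rule reads the names alone and no measured value. No subsystem caught by these words is named for the lyase that cuts choline into trimethylamine, so that enzyme was not analysed here.

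The study sequenced DNA from the cecal contents of 33 rats aged 14 to 15 weeks, so a value reports on the genes the microbes carried and not how strongly they were used. Each value is relative to the other reads of its library and gives no absolute number of gene copies. The spontaneously hypertensive rat (SHR) was bred for high blood pressure, which it develops without treatment, and the Wistar Kyoto rat (WKY) is the strain with normal pressure that it is usually set against. The 4 groups were SHR females (10 rats), SHR males (7 rats), WKY females (9 rats) and WKY males (7 rats), and the labels name no drug or genetic alteration for any of them. Each library came from its own rat. The p-values therefore measure the spread between rats, and shared cages or litters, which the labels do not give, would make them too small. No sequencing batch is labelled. The rats of each strain carry their own run of sample numbers, and the labels do not say what the order means. Anything that follows these numbers cannot be told apart from strain.

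Host and microbial chemistry meet in this group of compounds. Bacteria release trimethylamine from choline, carnitine or betaine, the gut takes it up, and the host turns it into TMAO, a blood metabolite that has been linked to cardiovascular disease. Betaine and choline also serve many bacteria as osmoprotectants, which are solutes that hold water in the cell, and some bacteria fix choline to their surface as phosphorylcholine.

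The reads assigned to any function ran from 95952 to 489862 per library, with a median of 360615. Group medians were 396240 for WKY females, 382975 for WKY males, 315719 for SHR males and 214911 for SHR females, so the SHR libraries, and those of the females above all, were shallower. The SHR libraries below the 251346 function reads of the shallowest WKY library carried consecutive sample numbers. Depth within SHR thus cannot be told apart from place in that run. Values below are normalized reads, which are the reads of a subsystem divided by the size factor the authors gave the library. Genera of the rodent gut were well represented, with group means of 3.99% to 9.35% of assigned reads for Bacteroides and 3.41% to 10.9% for Lactobacillus. A subsystem pools genes of different lengths, so levels are compared between groups and not between subsystems.

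The 6 subsystems differed greatly in how many reads they held. Choline and Betaine Uptake and Betaine Biosynthesis stood at rank 238 of the 1057 functions by mean normalized reads and took 0.112% of all function reads. The glycine, sarcosine and betaine reductase stood at rank 366 with 0.0524%, and Phosphorylcholine incorporation in LPS at rank 449 with 0.0270%. Choline Transport, TMAO reductase and Carnitine Metabolism lay at ranks 680, 726 and 760, with 0.0015%, 0.00073% and 0.00059%. These last 3 had at most 12 reads in any library, and their values are given with the reads behind them.

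Differences were tested with limma on log2(normalized reads + 1) over all 1057 functions, and a subsystem was called where p, adjusted by Benjamini-Hochberg across the whole table, was under 0.05. A difference on this scale understates the change of a subsystem with few reads. Between the strains in females, 2 of the 6 subsystems were called: Phosphorylcholine incorporation in LPS was higher and Carnitine Metabolism lower in SHR. In the same comparison 89 of all functions were called, which is 8.42%, with 39 higher and 50 lower in SHR. Between the strains in males none of the 6 was called, beside 26 of all functions (2.46%). Averaged over the sexes the same 2 subsystems as in females were called, in the same directions, beside 182 of all functions (17.2%). The median difference over the 6 subsystems was -0.08 in females, against -0.04 over all functions, and 0.0001 in males, against -0.0015.

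**Figure D1:**
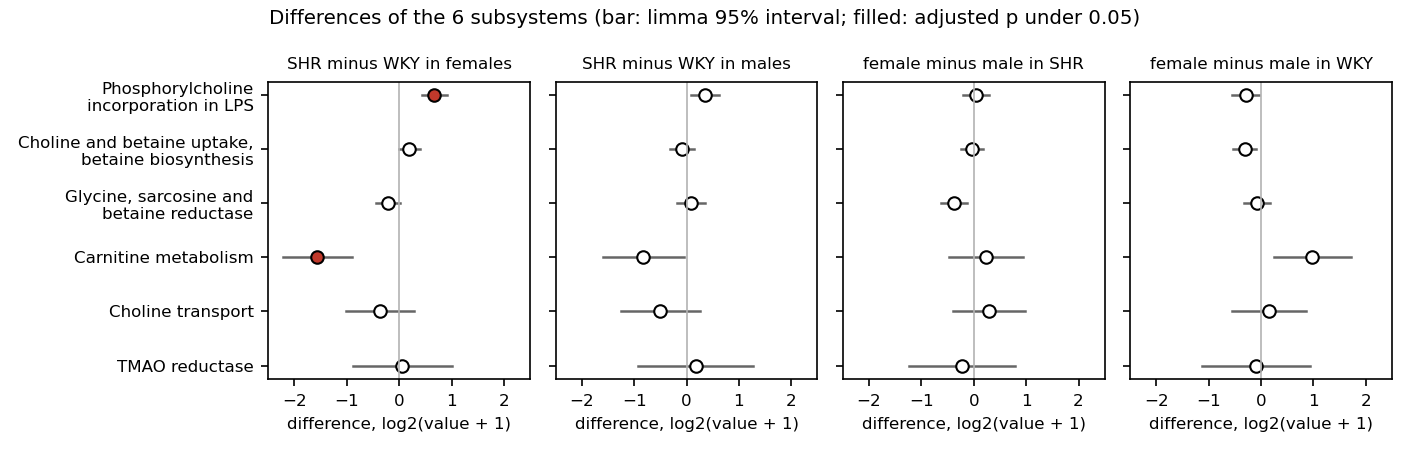
Difference of each of the 6 subsystems in 4 comparisons, on the log2(normalized reads + 1) scale of the horizontal axis, with points for limma's estimate, bars for its 95% interval and filled points for a limma adjusted p under 0.05 across the table. Filled points are seen in the comparison of the strains in females, at 0.67 for phosphorylcholine incorporation and -1.56 for carnitine metabolism, and the intervals of the 3 subsystems with few reads are the widest.

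Uptake and synthesis of betaine come first in the order of the pathway. Choline and Betaine Uptake and Betaine Biosynthesis holds the carriers that bring choline and betaine into the cell and the dehydrogenases that oxidise choline to betaine. It ranged from 295 to 396 normalized reads in SHR females (median 346) and from 244 to 361 in WKY females (median 304). In SHR males it ranged from 274 to 418 (median 342), and in WKY males from 283 to 483 (median 400). The groups overlapped throughout, with WKY females lowest and WKY males highest by mean. The means were 307 ± 46.2 (SD, n = 9) in WKY females, 348 ± 34.1 (SD, n = 10) in SHR females, 359 ± 54.3 (SD, n = 7) in SHR males and 382 ± 73.0 (SD, n = 7) in WKY males.

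Neither strain comparison of this subsystem passed limma's threshold. In females the difference was 0.19 with a 95% interval of -0.01 to 0.39 (limma adjusted p = 0.222), and 9 of 10 SHR females lay above the WKY female median. In males it was -0.08 with an interval of -0.32 to 0.15 (limma adjusted p = 0.735). The sexes of WKY differed by -0.31 (female minus male, SE 0.11), with an unadjusted p of 0.0073 that became 0.102 after limma's adjustment over all functions. All 9 WKY females nevertheless lay below the WKY male median. In SHR the females and males differed by -0.03, with an interval of -0.25 to 0.18 (limma adjusted p = 1).

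Choline Transport, a smaller subsystem of choline carriers, held 1 to 12 reads in each library and was found in all 33. Its normalized reads ran from 1.33 to 7.31 in SHR females (median 3.77) and from 2.36 to 10.3 in WKY females (median 4.79). They ran from 0.80 to 7.99 in SHR males (median 1.88) and from 0.98 to 9.48 in WKY males (median 4.48). The strains overlapped in both sexes. The difference of SHR from WKY was -0.37 in females (interval -1.01 to 0.28, limma adjusted p = 0.509) and -0.50 in males (interval -1.25 to 0.25, limma adjusted p = 0.461).

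The glycine, sarcosine and betaine reductase comes next, on the side of breakdown. It belongs to the fermentation of amino acids in pairs that clostridia and their relatives carry out, and its betaine branch reduces betaine with release of trimethylamine. The subsystem had 32 to 305 reads per library. In SHR it ranged from 98.1 to 181 normalized reads in females (median 130) and from 158 to 201 in males (median 169). In WKY it ranged from 127 to 221 in females (median 160) and from 134 to 258 in males (median 156). SHR females were thus the lowest group, with a mean of 137 ± 24.5 (SD, n = 10) against 158 ± 27.8 (SD, n = 9) in WKY females, 169 ± 42.4 (SD, n = 7) in WKY males and 176 ± 15.7 (SD, n = 7) in SHR males.

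In SHR the reductase lay lower in females than in males (female minus male -0.38, SE 0.12, interval -0.62 to -0.13), and 8 of 10 females lay below every male. That difference had the 8th lowest p-value of the 1057 functions, at an unadjusted p of 0.00412, and did not pass after limma's adjustment (adjusted p = 0.490). No function was called between the sexes of SHR (0%) by limma, edgeR or DESeq2, and 48 had an unadjusted limma p under 0.05. The 4 SHR females with over 251346 function reads averaged 155 ± 22.2 (SD, n = 4) and the 5 such SHR males 172 ± 13.3 (SD, n = 5). The difference was -0.15 in such deep libraries (limma adjusted p = 0.831) and -0.48 when all libraries were thinned to the depth of the shallowest (limma adjusted p = 0.365). Between the strains, the reductase differed by -0.21 in females (interval -0.45 to 0.02, limma adjusted p = 0.237) and by 0.08 in males (interval -0.19 to 0.35, limma adjusted p = 0.784). In WKY the sexes differed by -0.08 (interval -0.33 to 0.18, limma adjusted p = 0.787).

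**Figure D2:**
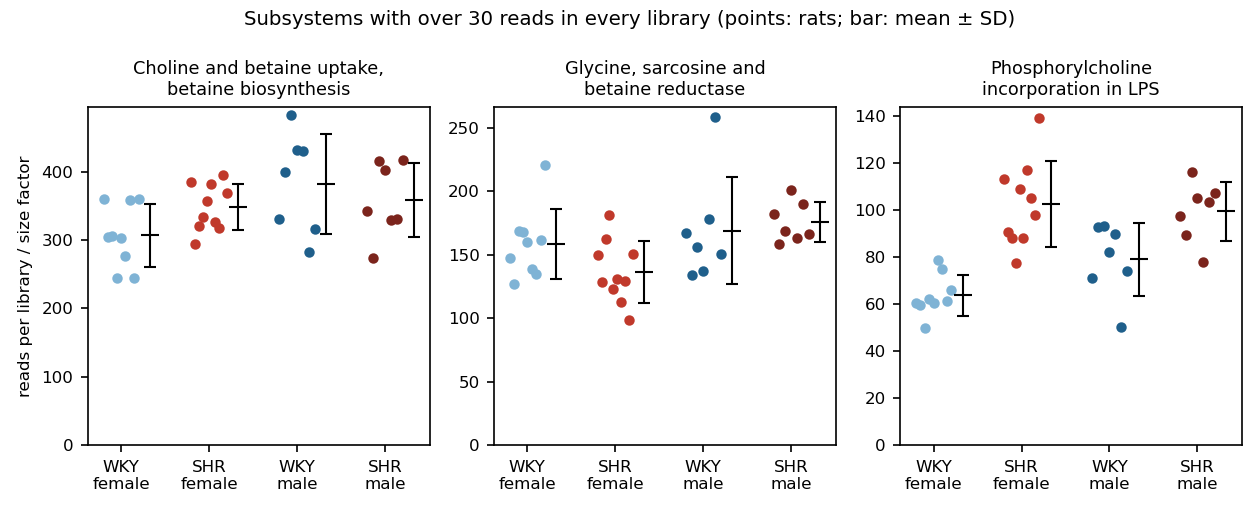
Normalized reads (vertical axis, reads per library divided by its size factor, from 0) of the 3 subsystems with over 30 reads in every library, 1 point a rat, with the mean ± SD beside each group. The 4 groups overlap for betaine uptake and for the reductase, while for phosphorylcholine incorporation the SHR females, at 77.4 to 139, sit above the WKY females, at 49.6 to 78.8, with 1 SHR female inside the WKY range.

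Carnitine Metabolism covers the anaerobic use of carnitine by enterobacteria and others, which reduce it to γ-butyrobetaine, a compound that further gut bacteria can turn into trimethylamine. It was the sparsest of the 6, with 63 reads in the 33 libraries together. In WKY females all 9 libraries held 2 to 9 reads, and their normalized reads ran from 1.27 to 7.09 (median 2.44). In SHR females 6 of 10 libraries held none, and the other 4 held 1, 3, 1 and 2 reads, for a highest value of 2.62. In WKY males 5 of 7 libraries held 1 to 7 reads, with a highest value of 5.53 and a median of 0.98. In SHR males 2 of 7 libraries held 1 read each, and the remaining 5 held none. WKY females were the group in which the subsystem was found in each rat.

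In females the subsystem fell by 1.56 in SHR against WKY (SE 0.33, interval -2.23 to -0.90, limma adjusted p = 0.00272), and 8 of 10 SHR females lay below every WKY female. Over the summed libraries of a group this was 2.84 reads per 1000000 function reads (RPM) in SHR females and 11.7 RPM in WKY females. In males the difference was -0.82 (interval -1.59 to -0.05) and did not pass (limma adjusted p = 0.222), with 0.951 RPM in the summed SHR and 5.22 RPM in the summed WKY libraries. Averaged over the sexes it fell by 1.19 (SE 0.25, limma adjusted p = 0.00154). The size depended on the scale: in females it was -1.96 with edgeR (adjusted p = 0.0344), -2.15 with DESeq2 (adjusted p = 0.0421), -2.51 for limma on log2(RPM + 1) (adjusted p = 0.00368) and -0.36 for limma with 10 added in place of 1 (adjusted p = 0.00443). The strain differences of females and males were not told apart, at -0.74 with an interval of -1.76 to 0.27 (limma adjusted p = 0.795). Within WKY, females lay above males by 0.98 (SE 0.36, unadjusted p 0.00964), which did not pass (limma adjusted p = 0.121).

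Depth moved with this result. The 6 SHR females without a carnitine read were the 6 shallowest of their group. Their sample numbers run without a gap, so depth and place in that run cannot be told apart. A count of 0 there allows up to 13.2 to 31.3 RPM, taking 3 reads as the limit of a count of 0. Library by library that range lies above the WKY female mean of 12.3 RPM. Summed, these 6 libraries held 0 carnitine reads in 1029264 function reads, which allows up to 2.91 RPM for counting error alone. The summed WKY females had 11.7 RPM. That limit leaves out the spread between rats, and the 6 libraries were picked for holding 0, so it sets no bound for the group. Whether depth made the difference was not tested. Among libraries with at least the 251346 function reads of the shallowest WKY library, the 4 SHR females held 0.91 to 2.62 normalized reads, a mean of 1.5 ± 0.80 (SD, n = 4), beside 3.69 ± 2.32 (SD, n = 9) in the WKY females, all of which passed that depth. With only those libraries the difference in females was -0.80 (limma adjusted p = 0.248) and averaged over the sexes -0.76 (limma adjusted p = 0.0837), so both calls ended. In SHR males, 3 of the 5 libraries at that depth still held no carnitine read. Thinned to the 95952 reads of the shallowest library, the mean was 0.2 reads in SHR females and 0.556 in WKY females, which is under 1 read and too little to read a change from. Leaving out the 3 shallowest libraries instead kept the call in females, at -1.44 (limma adjusted p = 0.00848).

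**Figure D3:**
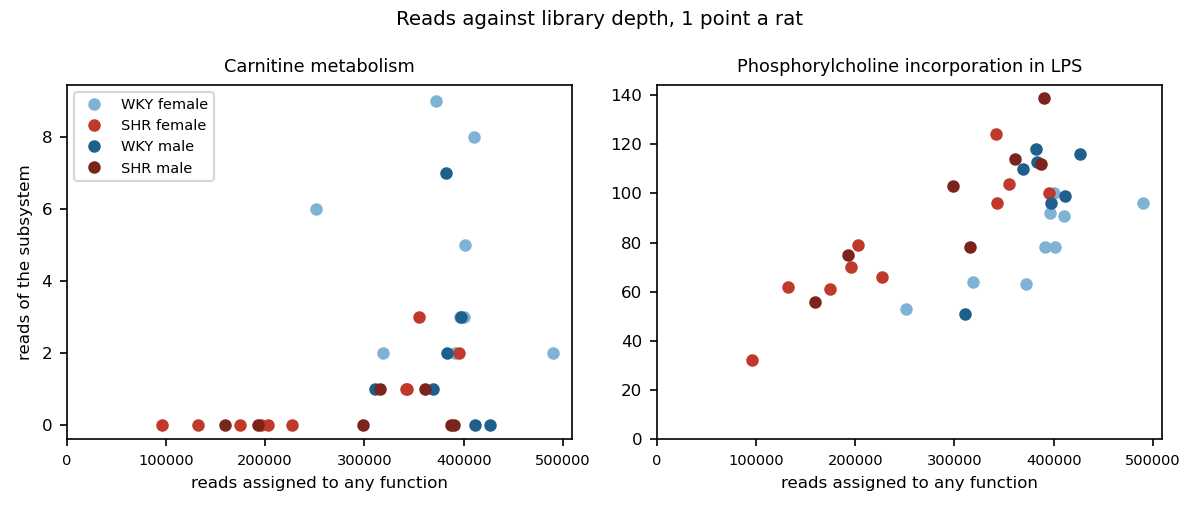
Reads of 2 subsystems (vertical axes, from 0 reads) against the reads assigned to any function in the same library (horizontal axis, reads), 1 point a rat, coloured by group. In the left panel no SHR library below the 251346 function reads of the shallowest WKY library held a carnitine read. In the right panel deeper libraries hold more phosphorylcholine reads. Per unit of depth the lowest SHR female lies narrowly above the highest WKY female, while in normalized reads these 2 groups overlap. How many of all functions lie apart per unit of depth was not counted.

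TMAO reductase is the enzyme with which enterobacteria and others respire on TMAO, handing electrons to it and giving back trimethylamine. It held 0 to 11 reads per library and was found in 25 of 33. SHR females ran from 0 to 6.22 normalized reads (median 1.69, 3 of 10 at 0) and WKY females from 0 to 2.44 (median 1.58, 1 of 9 at 0). SHR males ran from 0 to 6.99 (median 1.71, 1 of 7 at 0) and WKY males from 0 to 8.69 (median 0.84, 3 of 7 at 0). The 4 groups overlapped. In the 8 libraries without a read, a count of 0 allows up to 7.03 to 31.3 RPM, while the group means lay at 5.06 to 9.48 on that scale.

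The strain difference of TMAO reductase was 0.05 in females (interval -0.889 to 0.998, limma adjusted p = 1) and 0.17 in males (interval -0.92 to 1.27, limma adjusted p = 0.928). The sexes differed by -0.22 in SHR (limma adjusted p = 0.984) and by -0.10 in WKY (limma adjusted p = 0.968). These intervals are wide for a subsystem of about 2 normalized reads, and a p that misses the threshold here does not show that the strains were alike.

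**Figure D4:**
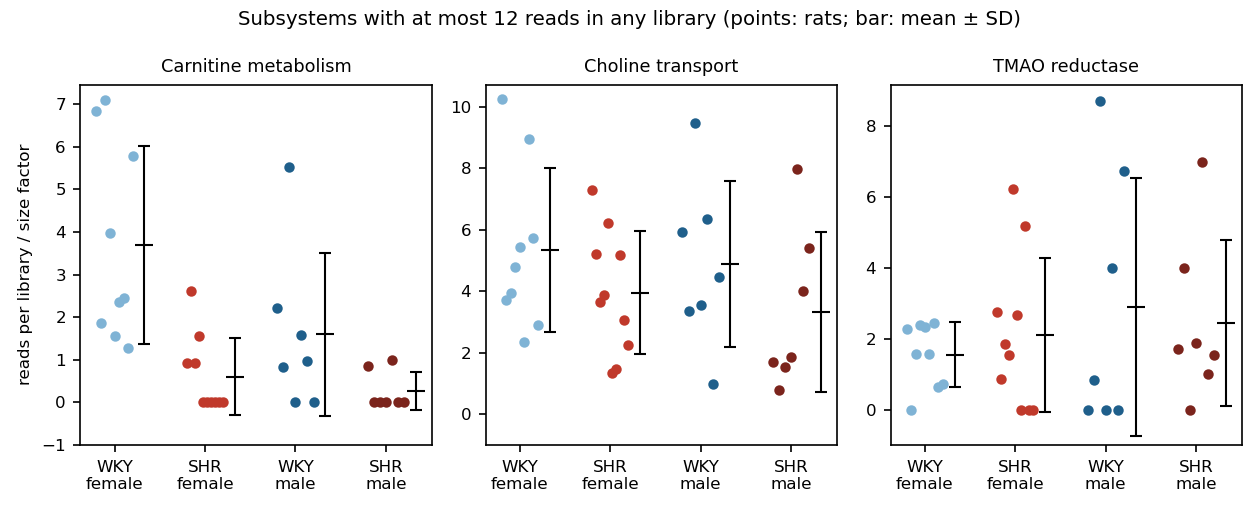
Normalized reads (vertical axis, reads per library divided by its size factor) of the 3 subsystems with at most 12 reads in any library, 1 point a rat, with the mean ± SD beside each group, whose lower end can pass below 0. Carnitine metabolism is at 0 in 6 of 10 SHR females and 5 of 7 SHR males and above 0 in all 9 WKY females, while the groups overlap for choline transport and TMAO reductase.

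Phosphorylcholine incorporation in LPS stands apart from the others in role. Its genes, of which the lic genes of Haemophilus are the known example, take up choline, phosphorylate it and attach it to lipopolysaccharide (LPS), the outer layer of Gram-negative bacteria, where it resembles host lipid and is recognised by C-reactive protein. It had 32 to 139 reads per library. Its normalized reads ranged from 77.4 to 139 in SHR females (median 102) and from 49.6 to 78.8 in WKY females (median 61.2). They ranged from 77.9 to 116 in SHR males (median 103) and from 50.1 to 93.2 in WKY males (median 82.2). Both sexes of SHR stood at about the same level, WKY males lay lower and WKY females lowest.

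In females the subsystem rose 1.59-fold in SHR against WKY, from 63.7 ± 8.67 (SD, n = 9) to 103 ± 18.1 (SD, n = 10). The log2 difference of 0.67 (SE 0.11, interval 0.44 to 0.90) had the third lowest p-value of all functions (limma adjusted p = 0.000474). All 10 SHR females lay above the WKY female median and 9 above every WKY female. Scaled to RPM in place of size factors, the females of the strains lay apart by a narrow gap. The lowest SHR female had 253 RPM and the highest WKY female 250 RPM. How many of all functions lay apart in this way was not counted. In males the means were 99.6 ± 12.6 (SD, n = 7) in SHR and 79.0 ± 15.5 (SD, n = 7) in WKY, and 5 of 7 SHR males lay above every WKY male. That difference of 0.35 (SE 0.13, interval 0.08 to 0.62) did not pass over all functions (limma adjusted p = 0.131). Averaged over the sexes the subsystem rose by 0.51 (SE 0.09, limma adjusted p = 0.000183).

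The strain difference was not shown to depend on sex. The females' difference exceeded the males' by 0.33, with an interval of -0.03 to 0.68 (limma adjusted p = 0.738). No function was called for strain by sex (0%) by limma, edgeR or DESeq2, and 82 had an unadjusted limma p under 0.05. All 9 WKY females lay below the WKY male median, a difference of -0.29 (SE 0.13, unadjusted p 0.0264) that did not pass (limma adjusted p = 0.193). None of the 6 subsystems was called between the sexes of WKY, where 7 of all functions were (0.662%), each lower in females. In SHR the sexes differed by 0.03 (interval -0.21 to 0.28, limma adjusted p = 1).

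Unlike that of carnitine metabolism, the call for phosphorylcholine incorporation in females held in the deeper libraries. With only libraries of at least 251346 function reads it was 0.53 (limma adjusted p = 0.0284), where the 4 SHR females averaged 92.3 ± 15.1 (SD, n = 4). After thinning all libraries to 95952 reads it was 0.61 (limma adjusted p = 0.00855), with means of 33.3 reads for SHR females, 33.9 for SHR males, 21.1 for WKY females and 25 for WKY males. The edgeR and DESeq2 fits on the recovered reads gave 0.70 (edgeR adjusted p = 0.000689) and 0.67 (DESeq2 adjusted p = 6.41e-06).

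The same 2 subsystems appear in the authors' deposited table for females, which lists 85 functions. There phosphorylcholine incorporation has a log2 fold change of -0.67 (SE 0.11, adjusted p 8.07e-07) and carnitine metabolism one of 2.12 (SE 0.69, adjusted p 0.00752). The direction of that table is not labelled, and its signs are the opposite of SHR minus WKY in the present fit for 85 of 85 functions, as they would be for WKY over SHR. The authors' deposited table of the general model, whose contrast is not stated, lists 148 functions and holds both, phosphorylcholine incorporation at -0.35 (SE 0.12, adjusted p 6.14e-07) and carnitine metabolism at 0.96 (SE 0.82, adjusted p 0.00124). Its signs are the opposite of SHR minus WKY averaged over the sexes for 139 functions and the same for 9. An SE of 0.82 beside 0.96 is too large for so small an adjusted p. The p-values of the general model are thus not read here as tests of the fold changes printed with them. The authors' deposited table for males lists 16 functions and none of the 6. These tables rest on the same libraries and are no independent evidence.

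How the 6 subsystems varied from rat to rat was described after subtracting each group's mean, by Spearman's rho over the 33 libraries. Points share depth and community composition, no p is given, and for the 3 subsystems with few reads the values are largely ties and counting error. Betaine uptake and phosphorylcholine incorporation varied together most of the 15 pairs (rho 0.497), followed by Choline Transport with TMAO reductase (0.469) and carnitine metabolism with the reductase (0.396). The lowest was the reductase with phosphorylcholine incorporation, at -0.227.

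Across all other functions with a mean of at least 10 normalized reads, phosphorylcholine incorporation was most like Phosphoenolpyruvate phosphomutase (rho 0.588), the enzyme that opens phosphonate synthesis. The ABC transporter tungstate (0.544) and tRNA mods Archaea (0.503) followed. Phosphoenolpyruvate phosphomutase itself rose in SHR females, from 126 ± 40.8 (SD, n = 9) to 253 ± 56.2 (SD, n = 10) normalized reads, by 1.03 (SE 0.22, limma adjusted p = 0.00309). In the same comparison tRNA mods Archaea rose by 0.18 (SE 0.04, limma adjusted p = 0.0064). The ABC transporter tungstate went the other way, at -0.34 in females (limma adjusted p = 0.341), and fell by 0.996 in males (SE 0.25, limma adjusted p = 0.0259) and, averaged over the sexes, fell by 0.67 (SE 0.16, limma adjusted p = 0.00523). Among 161 genera with a mean share of at least 0.05%, Erysipelothrix (0.615), Acinetobacter (0.554) and Arcobacter (0.518) ranked highest for phosphorylcholine incorporation. Erysipelothrix took on average 0.0535% in SHR females and 0.0576% in WKY females. For Acinetobacter these means were 0.185% and 0.155%, and for Arcobacter 0.151% and 0.122%. Which genera carry the subsystem was not tested.

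Betaine uptake was most like Nonhomologous End-Joining in Bacteria (rho 0.679), Carbon monoxide induced hydrogenase (0.646) and Raj MurE (0.624), and among genera like Clostridioides (0.652), Enterococcus (0.646) and Streptococcus (0.636). The reductase was most like Alanine biosynthesis (0.613), Maltose and Maltodextrin Utilization (0.581) and Folate Biosynthesis (0.566). Its highest genera were Bifidobacterium (0.586), Escherichia (0.45) and Akkermansia (0.449), and its lowest was Pedobacter (-0.599).

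The sparse subsystems gave the following, with the caution above. Carnitine metabolism was most like Flavohaemoglobin (rho 0.4998), Streptococcal Hyaluronic Acid Capsule (0.495) and Heme biosynthesis orphans (0.451), and among genera like Escherichia (0.549), Cellulosilyticum (0.333) and Aminipila (0.331). Choline Transport was most like Nudix KE (0.472), Inositol catabolism (0.465) and a subsystem of aminoglycoside resistance enzymes (0.437), and among genera like Escherichia (0.389), Anaerotignum (0.34) and Bacteroides (0.32). TMAO reductase was most like the cluster yphABCDEFG of unknown sugar utilization (0.677), Mannose Metabolism (0.618) and the tripartite multidrug resistance systems of Gram-negative bacteria (0.603). Its highest genera were Bacteroides (0.567), Alloprevotella (0.556) and Odoribacter (0.553).

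Escherichia, a genus with species that carry the carnitine genes, took 0.104% ± 0.0515 (SD, n = 9) of assigned reads in WKY females and 0.0929% ± 0.0645 (SD, n = 10) in SHR females. The males held less, with 0.0722% ± 0.0437 (SD, n = 7) in WKY and 0.0481% ± 0.00780 (SD, n = 7) in SHR. The strain ranges of females, 0.0450% to 0.189% in WKY and 0.0435% to 0.248% in SHR, overlapped for this genus, and no test was made of it.

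Neighbouring pathways were described from lists of words in subsystem names. Among 11 osmotic stress functions other than the betaine ones, 1 rose and 1 fell in SHR females and likewise in SHR males, with a median difference of -0.04 in females and -0.09 in males. Over all functions the median was -0.04 in females, with 8.42% called, and -0.0015 in males, with 2.46% called. Hyperosmotic potassium uptake rose in SHR females, from 105 ± 22.3 (SD, n = 9) to 147 ± 19.1 (SD, n = 10), by 0.50 (SE 0.11, limma adjusted p = 0.00309). In males its difference was -0.01 (SE 0.12) and was not called. Averaged over the sexes it rose by 0.24 (SE 0.08, limma adjusted p = 0.0376). Trehalose Uptake and Utilization, the use of a sugar that also protects against osmotic stress, fell by 0.51 in females (limma adjusted p = 0.00817) and fell by 0.54 in males (limma adjusted p = 0.0319). Synthesis of osmoregulated periplasmic glucans rose in SHR males by 0.61 (SE 0.17, limma adjusted p = 0.0492). In females its difference of 0.44 (SE 0.15) did not pass (limma adjusted p = 0.055), and averaged over the sexes it rose by 0.53 (SE 0.11, limma adjusted p = 0.00201). Averaged, 2 of the 11 functions rose and 1 fell, beside 17.2% of all functions called.

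Ethanolamine, the partner of choline in membrane lipids, is broken down in bacterial microcompartments. Of the 3 functions of that list, Glycerol fermentation to 1,3-propanediol was caught by the word propanediol and is not ethanolamine breakdown. It fell by 1.43 in SHR males (SE 0.31, limma adjusted p = 0.00938), from 89.1 ± 55.7 (SD, n = 7) in WKY to 28.2 ± 8.83 (SD, n = 7), beside 2.46% of all functions called. Averaged over the sexes it fell by 0.88 (SE 0.20, limma adjusted p = 0.0035), beside 17.2%. It was also lower in WKY females than in WKY males (female minus male -1.29, limma adjusted p = 0.0170), beside 0.662%. Ethanolamine utilization itself was not called, at -0.02 in females (limma adjusted p = 0.993) and -0.26 in males (limma adjusted p = 0.329). Neither of the 2 membrane lipid functions was called in any of the 6 comparisons, in which 0% to 17.2% of all functions were.

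Glycine and one-carbon functions handle what is left of betaine and sarcosine once their methyl groups are taken off. The words of that list also caught names of other chemistry, such as a serine endopeptidase. Of 17 such functions, 16 had reads, and 2 fell and 0 rose in SHR females, beside 8.42% of all functions called in that comparison, with 50 lower and 39 higher. Glycine Biosynthesis fell by 0.46 (limma adjusted p = 0.0323) and Pyruvate Alanine Serine Interconversions fell by 0.52 (limma adjusted p = 0.00309). Averaged over the sexes 3 of the 17 fell, a share near the 17.2% called over all functions: Pyruvate Alanine Serine Interconversions at -0.48 (limma adjusted p = 0.000265), Creatine and Creatinine Degradation at -0.62 (limma adjusted p = 0.00408) and the Glycine cleavage system at -0.32 (limma adjusted p = 0.0247). None of the 17 was called in males, beside 2.46% of all functions, or between the sexes, beside 0% in SHR and 0.662% in WKY. Of the 7 methyl transfer functions, which include methionine synthesis and the making of methane from methylated compounds, none was called in any of the 6 comparisons. Over all functions 0% to 17.2% were called in them.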

How the data were processed

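Cecal DNA was sequenced by shotgun from Nextera libraries after a bead-based soil DNA kit, per the labels' protocols. FastQC 0.11.5, cutadapt 2.6, Trimmomatic 0.36 and DESeq2 were used, per the submitters' processing notes, and the host build was Rnor_6.0. The tool and database behind the subsystems, and whether a read can count towards more than 1 of them, were not given in the sources used here. The authors deposited a signal that is never negative, the reads of each function divided by a size factor of the library. Genera were deposited in percent of assigned reads. The authors' deposited model tables hold a log2 fold change with its standard error, a test score, a p-value and an adjusted p-value. All columns of values belonged to a labelled sample.

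Raw counts would have gone to edgeR; as the deposited values were normalized, limma 3.58.1 (variance trend, robust) on log2(value + 1) was the main test, with 4 group means over 33 libraries and no filter, so that all 1057 functions, 1024 of them with reads, were tested 2-sided. Dividing by each library's step gave whole reads for 100% of values, within 0.01 read. On these reads edgeR 4.0.16 called 102 functions between the strains in females and DESeq2 1.42.0 called 132. Limits of a count of 0 took 3 reads and cover counting error only, since reads counted without molecular identifiers are not independent. The fits were tested on simulated data in R 4.3.3, with changes put only into functions with a mean of at least 10 normalized reads. That test does not cover the 3 sparse subsystems. Python 3.11.15 gave ranks and correlations.

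The 6 subsystems and the lists of words were chosen with earlier results of these data known. All 6 are named, with the related functions that were called and, for each subsystem, the 3 functions and 3 genera of highest rank correlation. The alternatives changed the test, scaling, pseudocount, filter, variance model, samples and depth.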

Additional observations from a re-analysis of the deposited data

How the results depend on the processing

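Depth and the few reads of 3 subsystems limit these results. Phosphorylcholine incorporation kept its calls in females and averaged over the sexes under all alternatives run, and carnitine metabolism kept both except under the 2 depth settings, which were chosen after seeing the data. In females carnitine metabolism gave -0.31 thinned (limma adjusted p = 0.515) and -0.80 with deep libraries only, and averaged -0.41 and -0.76. Over all alternatives it ran from -2.51 to -0.31 in females, from -2.20 (DESeq2) to -0.16 (pseudocount 10) in males, where limma and edgeR made no call and DESeq2 gave no adjusted p, and from -2.17 (DESeq2) to -0.26 (pseudocount 10) averaged. The filter (a value of 10 in 7 libraries, which 650 functions passed) gives no value for the 3 sparse subsystems. No paired analysis was possible because replicate numbers were given in accession order and pair nothing.

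Counts of functions called moved by over 1.5 times as follows, and the cause was not tested. In females there were 150 without the 3 shallowest libraries and 39 after thinning. In males there were 83 with DESeq2, 50 with the filter, 15 after thinning, 8 with deep libraries only and 2 with males only, and 10 (without WKY male 6) to 81 (without WKY male 7) on leaving out 1 library. Averaged, 103 were called after thinning. Between the sexes of SHR 2 were called with deep libraries only and 0 to 1 (without SHR male 1) on leaving out 1. In WKY there were 36 with edgeR, 70 with DESeq2, 23 with the filter, 12 without the 3 shallowest, 13 after thinning, 1 with WKY only, and 2 (without WKY male 5) to 74 (without WKY male 7) on leaving out 1. For strain by sex 7 were called with deep libraries only and 0 to 1 (without WKY male 2) on leaving out 1.

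The direction of uncalled differences turned in these cases, on the log2 scale. For TMAO reductase in females it was -0.0955 at equal totals, -0.0174 with pseudocount 0.5, and -0.118 (without SHR female 5) to 0.199 on leaving out 1 library. In males it was -0.179 with edgeR, -0.202 with DESeq2, -0.0246 with pseudocount 10, and -0.0734 (without SHR male 5) to 0.495 on leaving out 1; averaged, leaving out 1 gave -0.00953 to 0.275. Between the sexes of SHR it was 0.109 without the 3 shallowest and -0.471 to 0.0286 on leaving out 1, and in WKY 0.185 at equal totals, 0.0442 with pseudocount 0.5, 0.0290 thinned, and -0.324 to 0.223 on leaving out 1. For strain by sex it was 0.658 with edgeR, 0.698 with DESeq2, 0.0768 with pseudocount 10, 0.208 without the 3 shallowest, and -0.440 to 0.128 on leaving out 1. Phosphorylcholine incorporation between the sexes of SHR was -0.00263 without the 3 shallowest, -0.0324 thinned, -0.0472 with deep libraries only, and -0.0225 to 0.0768 on leaving out 1. Carnitine metabolism was -0.0027 thinned between the sexes of WKY, and for strain by sex 0.113 with edgeR, 0.0477 with DESeq2 and 0.203 thinned. With deep libraries only, averaged over the sexes, betaine uptake was -0.0163 and the reductase 0.0162. On leaving out 1 library, betaine uptake between the sexes of SHR ran from -0.0962 to 0.00504 and the reductase between those of WKY from -0.140 to 0.0287. Choline Transport between the sexes of WKY was -0.00841 thinned and -0.0783 to 0.322 on leaving out 1, and for strain by sex -0.0450 to 0.367.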

Other observations

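Genera with species known to make trimethylamine from choline, or to take up carnitine or betaine, were listed by name, and 13 of the 14 listed were in the table; Emergencia was not analysed here. No test was made of them. Desulfovibrio, which holds choline-cutting species, took 0.152% ± 0.0204 (SD, n = 10) of assigned reads in SHR females and 0.119% ± 0.0286 (SD, n = 9) in WKY females, with overlapping ranges of 0.113% to 0.182% and 0.0843% to 0.175%. Klebsiella took 0.0966% ± 0.0131 (SD, n = 10) in SHR females and 0.0726% ± 0.0111 (SD, n = 9) in WKY females. Eubacterium, a genus with betaine and choline users, took 0.371% ± 0.114 (SD, n = 10) in SHR females and 0.260% ± 0.0605 (SD, n = 9) in WKY females. Its males were closer, at 0.380% ± 0.0852 (SD, n = 7) in SHR and 0.354% ± 0.128 (SD, n = 7) in WKY. Among the listed genera other than the lactobacilli, Escherichia had lower means in SHR in both sexes and the others higher ones, some by little. Proteus took 0.0285% ± 0.0081 (SD, n = 10) in SHR females and 0.0265% ± 0.0079 (SD, n = 9) in WKY females.

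The lactobacilli, which import betaine as an osmoprotectant, had lower means in SHR. Limosilactobacillus took 1.52% ± 1.5 (SD, n = 10) of assigned reads in SHR females and 3.43% ± 1.94 (SD, n = 9) in WKY females, and 1.35% ± 0.776 (SD, n = 7) and 5.52% ± 4.19 (SD, n = 7) in the males of the same strains. Lactobacillus took 3.41% ± 3.87 (SD, n = 10) in SHR females and 8.66% ± 6.85 (SD, n = 9) in WKY females. The single libraries spread widely, from 0.858% to 13.2% in SHR females and from 1.97% to 22.7% in WKY females.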
